A study of Mus musculus with 38 samples.

Results

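The Bcl2 family sets the threshold at which a cell dies by apoptosis. Its 10 members described here are the rows of the deposited RPKM table (reads scaled to gene length and library size) that carry the symbols Bcl2, Bcl2l1, Mcl1, Bax, Bak1, Bcl2l11, Bbc3, Pmaip1, Bid and Bad. All 10 were found among the 13260 genes of the table, and they were followed over all 38 libraries. The family was picked with results of these data in view, because Pmaip1 was higher in myeloma cells of the bone lining than in those of the central marrow. The values of the members in that comparison are therefore given as a description, with no test.

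Each library held 100 cells sorted by flow cytometry from C57Bl/KaLwRij mice. At 8 to 10 weeks of age mice received an intravenous injection of vehicle, and are called healthy, or of 1000000 5TGM1-GFP cells, a mouse myeloma line marked with green fluorescent protein (GFP), and are called myeloma-bearing. All were ended on day 23. After exclusion of CD45+ and Ter119+ blood cells, endothelial cells were sorted as CD31+ and stromal progenitors as Sca1+ALCAM-, with 5 libraries each from healthy and from myeloma-bearing mice, and osteoprogenitors as ALCAM+Sca1-, with 4 from each. GFP+ myeloma cells, which all derive from that single line, gave 5 libraries from the bone lining and 5 from the central marrow. Bone lining cells were released with collagenase at 37 °C and central marrow cells were flushed out, so that the site of the myeloma cells and the way they were isolated cannot be told apart. A letter in each library's code names its replicate. The labels do not say that a letter is a single mouse, so p-values measure the spread between these libraries.

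The pro-survival proteins Bcl2, Bcl-xL (encoded by Bcl2l1) and Mcl1 hold the effectors Bax and Bak (Bak1) in check, and active effectors open the outer mitochondrial membrane and release cytochrome c. The BH3-only proteins start the process by binding the pro-survival proteins, and some also activate the effectors directly. Among them, Noxa (Pmaip1) binds mainly Mcl1, Bad binds Bcl2 and Bcl-xL, and Bim (Bcl2l11), Puma (Bbc3) and Bid bind all pro-survival proteins. Plasma cells and many myelomas depend on Mcl1. Much of this family is controlled after transcription, by protein cleavage, phosphorylation and turnover, which RNA levels do not show.

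Upstream sequences are shown for Bid, which was higher in myeloma cells than in niche cells, for Bax, which was called higher in the main comparison and in 6 of its 14 alternatives, for Bcl2, whose level in myeloma cells was the lower one, and for Mcl1, the most abundant member. Each is the 250 bases before the transcription start that RefSeq gives on GRCm38.p6, read on the strand of the gene. The bases just after that start were found in a GENCODE transcript for Bid and Bax and not for Bcl2 and Mcl1, whose RefSeq starts lie 16 and 67 bases upstream of the GENCODE gene. The Bid window is chr6:120916825-120917074 (minus strand), the Bax window chr7:45466899-45467148 (minus strand), the Mcl1 window chr3:95658471-95658720 (plus strand) and the Bcl2 window chr1:106714291-106714540 (minus strand). Capitals mark matches, on either strand, to the GC box GGGCGG and to the E-box CACGTG.
Bid: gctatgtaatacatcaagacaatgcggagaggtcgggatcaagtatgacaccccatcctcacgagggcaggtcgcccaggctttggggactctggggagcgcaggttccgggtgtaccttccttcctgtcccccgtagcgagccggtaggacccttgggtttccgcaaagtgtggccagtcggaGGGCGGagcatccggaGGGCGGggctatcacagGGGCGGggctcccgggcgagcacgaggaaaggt
Bax: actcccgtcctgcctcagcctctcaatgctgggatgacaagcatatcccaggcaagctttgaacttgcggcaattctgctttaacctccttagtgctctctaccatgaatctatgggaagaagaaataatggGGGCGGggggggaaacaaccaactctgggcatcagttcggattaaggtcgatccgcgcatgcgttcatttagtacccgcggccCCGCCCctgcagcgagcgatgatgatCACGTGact
Mcl1: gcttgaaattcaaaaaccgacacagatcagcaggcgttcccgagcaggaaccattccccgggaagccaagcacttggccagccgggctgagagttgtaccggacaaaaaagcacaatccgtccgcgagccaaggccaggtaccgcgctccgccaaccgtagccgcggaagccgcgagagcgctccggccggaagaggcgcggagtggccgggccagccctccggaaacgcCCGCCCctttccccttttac
Bcl2: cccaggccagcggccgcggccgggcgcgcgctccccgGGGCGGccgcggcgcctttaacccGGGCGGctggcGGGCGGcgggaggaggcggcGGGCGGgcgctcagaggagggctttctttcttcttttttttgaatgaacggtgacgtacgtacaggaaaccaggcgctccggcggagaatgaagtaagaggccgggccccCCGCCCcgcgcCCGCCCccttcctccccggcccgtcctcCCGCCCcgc
The GC box was matched 7 times in the Bcl2 window, 3 times for Bid, 2 times for Bax and 1 time for Mcl1, and the E-box 1 time, in the Bax window, apart from its GC boxes. GC content was 74.8% for Bcl2, 64.4% for Mcl1, 63.6% for Bid and 54.0% for Bax, against a median of 52.4% over 32851 promoters. RefSeq windows were found for 9 members with 15 starts, and none for Pmaip1. Of these 15 starts, 10 held a GC box, 4 a CCAAT box (CCAAT), 2 the E-box, and 0 the AP-1 site (TGANTCA), the cyclic AMP response element (TGACGTCA) or the TATA box (TATAAA). Over all promoters the shares were 32.7% for the GC box, 33.8% for CCAAT, 6.02% for the E-box, 6.75% for the AP-1 site, 1.55% for the cyclic AMP response element and 12.4% for the TATA box. A match describes the letters of the window and is not a site shown to be in use.

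Reads on genes ran from 9735031 to 34883291 per library, with a median of 18358479. Endothelial cells, osteoprogenitors and myeloma cells carried the markers of their gates. The summed level of 5 endothelial markers was 1892 to 4059 RPKM in endothelial cells and no more than 23.8 RPKM in all the rest, 7 osteoprogenitor markers summed to 8076 to 64326 RPKM in osteoprogenitors and at most 1214 RPKM elsewhere, and 6 plasma cell markers summed to 3766 to 10405 RPKM in myeloma cells and at most 452.4 RPKM in niche cells. The list of 6 stromal progenitor markers did not set stromal progenitors apart. Its median sum was 1637 RPKM in healthy and 1507 RPKM in myeloma-bearing stromal progenitors, and 3935 and 4470 RPKM in healthy and myeloma-bearing endothelial cells. Ly6a was 2195 to 8769 RPKM in endothelial cells. Of this list Pdgfra, a single gene, was 34.2 to 98.1 RPKM in stromal progenitors and at most 6.01 RPKM in endothelial cells. Neutrophil markers summed to 7233 RPKM in healthy stromal progenitor L and to 8061 RPKM in myeloma-bearing stromal progenitor E, with at most 161.8 RPKM in any other library. Of 5 macrophage markers 3 were in the table, and they summed to 168.3 to 895.9 RPKM in myeloma cells, nearly all of it Cd68, and to at most 220.9 RPKM in niche cells, while Csf1r had 0 to 64 reads in myeloma cells. The 2 erythroid markers in the table summed to at most 14.4 RPKM in every library. In healthy endothelial library L, 9 of the 10 members had 3 reads or fewer, and Mcl1 reached 489 RPKM. The comparisons between niche groups below are also given without these libraries.

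Pmaip1, on chromosome 18 from 66458533 to 66465565 (GRCm38), separated myeloma cells from all niche cells. Among the 10 myeloma libraries it ran from 20.4 to 103 RPKM (1125 to 6985 reads), and among the 28 niche libraries from 0 to 5.63 RPKM, with 3 reads or fewer in 16 of them. In endothelial cells of myeloma-bearing mice it was at most 0.0925 RPKM, which is 4 reads. The few niche libraries with a clear level were endothelial O (5.28 RPKM), stromal N and O (3.85 and 5.63 RPKM) and osteoprogenitor N (2.70 RPKM) of healthy mice, and stromal J (4.38 RPKM) and osteoprogenitors D and I (1.34 and 1.07 RPKM) of myeloma-bearing mice. In the order of group means, bone lining myeloma cells (69.6 RPKM ± 22.2, SD, n = 5) and central marrow myeloma cells (24.1 RPKM ± 3.40, SD, n = 5) came first, apart from each other and from all niche groups. The niche groups followed with means from 1.91 RPKM (healthy stromal progenitors) down to 0.0436 RPKM (myeloma-bearing endothelial cells), and their ranges overlapped.

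**Figure D1:**
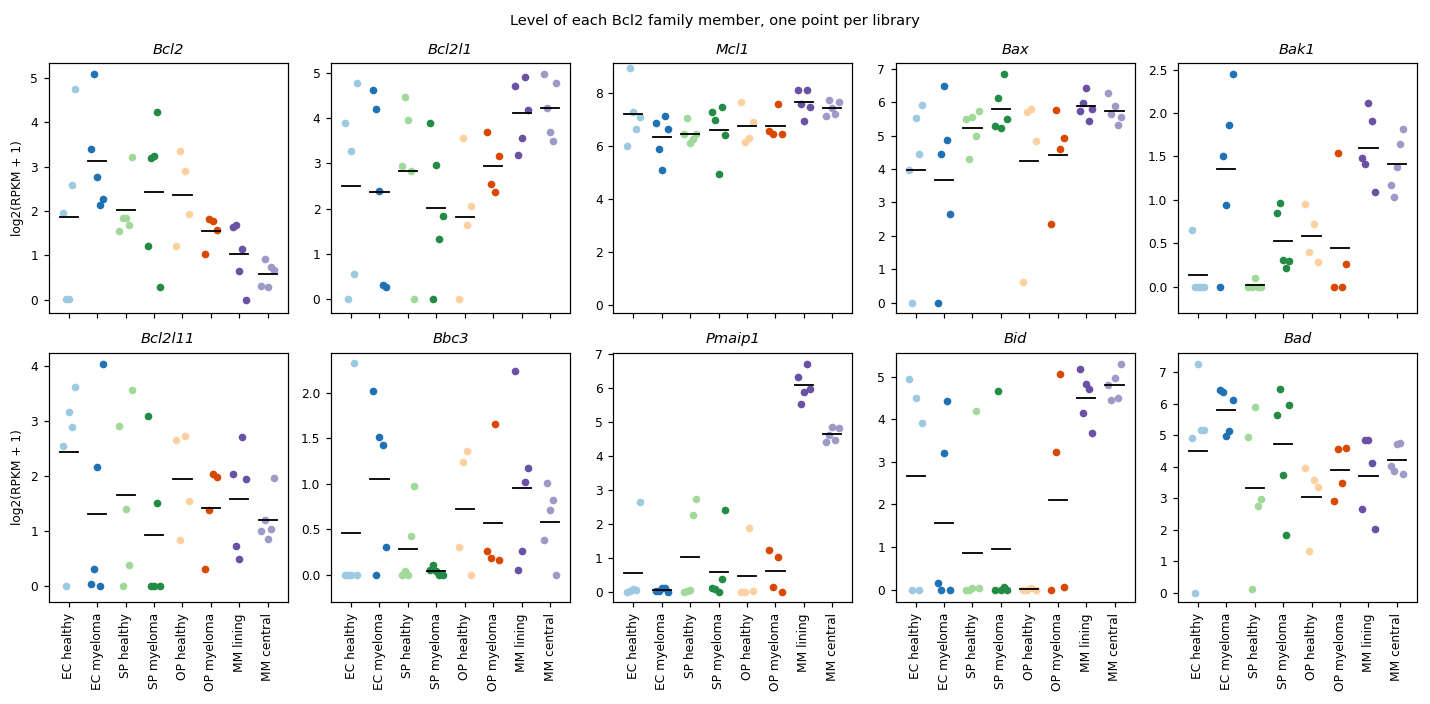
Each panel plots log2(RPKM + 1) of a family member in the 8 groups, with a point per library and a line at the group mean; EC are endothelial cells, SP stromal progenitors, OP osteoprogenitors and MM myeloma cells, and the axes differ between panels. Pmaip1 in the 10 myeloma libraries lies above every niche library, and Mcl1 is at least 29.9 RPKM in all 38 libraries.

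In myeloma cells of the bone lining Pmaip1 was 78.7, 45.6, 58.6, 103 and 62.1 RPKM in replicates D, E, G, I and J, on 1709 to 6985 reads. In the central marrow it was 20.4, 23.6, 27.9, 21.3 and 27.3 RPKM in the same order, on 1125 to 1692 reads. All 5 bone lining libraries were above all 5 central marrow libraries. The ratio of the means was 2.89, and the log2 fold change was 1.45 (SE 0.27) on the log2(RPKM + 1) scale used for all fold changes here. Between libraries of the same letter the ratio was 3.86, 1.94, 2.10, 4.84 and 2.27. Pmaip1 was the only 1 of the 10 members whose libraries did not overlap between the sites, against 1.47% of the 8857 genes tested, and 0.203% of these genes were called between the sites (an adjusted p under 0.1 with a change of more than 1 on the log2 scale), 0.147% as higher and 0.0565% as lower. These shares are given for scale, since the family was picked on this comparison.

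The other members that passed the filter had smaller log2 fold changes between the sites. The log2 fold change was 0.38 (SE 0.48) for Bcl2l11, 0.36 (SE 0.45) for Bbc3, 0.22 (SE 0.24) for Mcl1, 0.19 (SE 0.40) for Bak1, 0.14 (SE 0.26) for Bax, -0.12 (SE 0.41) for Bcl2l1, -0.30 (SE 0.33) for Bid and -0.52 (SE 0.51) for Bad, against a median of -0.0082 over the genes tested. Bcl2 was under the filter on low values, which asked for more than 1 RPKM in 4 or more libraries of a comparison. Its means were 1.22 RPKM in the bone lining and 0.517 RPKM in the central marrow, a ratio of 2.36. For Bbc3, also low, the ratio of the means was 2.29. The libraries of the sites overlapped for both genes. For Mcl1, the protein that Noxa binds, the bone lining libraries D and I stood at 279 and 280 RPKM and the central marrow libraries D and I at 139 and 148 RPKM, while in E, G and J the bone lining libraries were the lower ones. The ratio of Mcl1 to Pmaip1 was 3.09 ± 0.831 (SD, n = 5, range 2.09 to 4.25) in the bone lining and 7.26 ± 1.02 (SD, n = 5, range 6.25 to 8.95) in the central marrow, without overlap. The ratio holds Pmaip1 itself and so is not a separate finding.

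**Figure D2:**
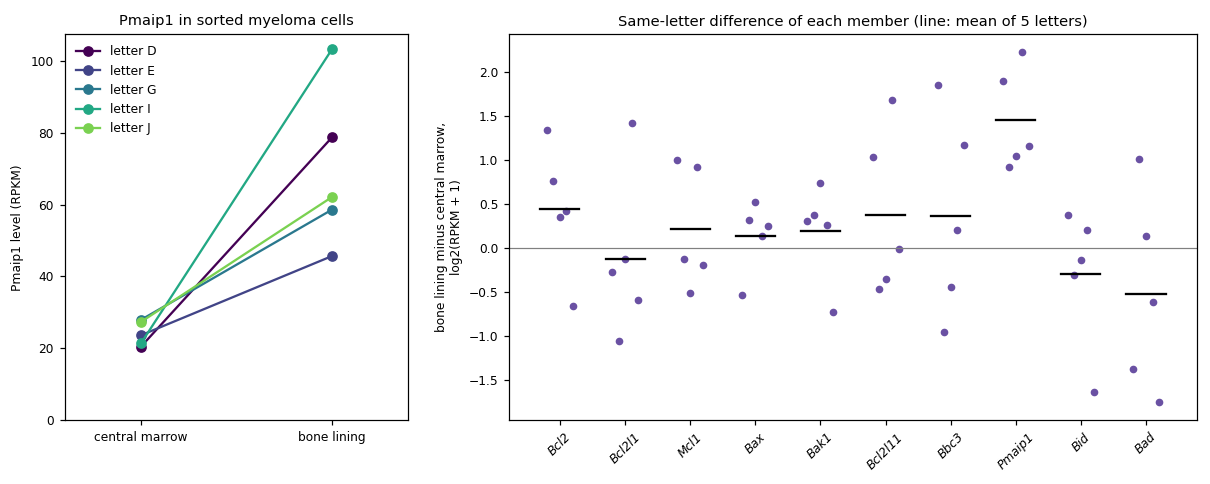
The left panel plots Pmaip1 in RPKM in sorted myeloma cells of the central marrow and the bone lining, with a line joining libraries of the same letter, and the right panel the bone lining minus central marrow difference in log2(RPKM + 1) for each member, with a point per letter and a line at their mean. Pmaip1 is higher in the bone lining for all 5 letters, while the points of every other member fall on both sides of 0.

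Fos and Fosb, immediate-early genes that are switched on by growth factors and stress and also by tissue digestion, had higher levels in the bone lining as well. Of 17 immediate-early and heat shock genes 11 passed the filter, Fos and Fosb among them only through the bone lining libraries, so that their values are a description. Of all genes, 0.203% were called. Fos was 53.5 to 177 RPKM in the bone lining (mean 93.2 ± 51.9, SD, n = 5) and 0.512 to 22.3 RPKM in the central marrow (mean 8.33 ± 10.1, SD, n = 5), without overlap. The log2 fold change was 4.05 (SE 0.67) for Fos and 3.26 (SE 0.52) for Fosb. The list summed to 282 to 585 RPKM in the bone lining and 211 to 302 RPKM in the central marrow. In niche cells, which came from collagenase-treated bone, this list summed to 3151 to 8374 RPKM while Pmaip1 was at most 5.63 RPKM. Stromal progenitor markers summed to 0.500 to 38.1 RPKM in bone lining myeloma cells (median 10.0) and 0.140 to 4.73 RPKM in those of the central marrow (median 0.816), and osteoprogenitor markers to 25.1 to 76.0 and 37.8 to 96.8 RPKM. The part of digestion or of other cells in the Pmaip1 and Fos differences was not tested. In the other 7 lists counted, which cover p53 and its targets, the integrated stress response, caspases, death receptors, inhibitor of apoptosis proteins, Mcl1 turnover and other Bcl2 family genes, 0 genes passed both thresholds, and voom-limma called 0. Background knowledge makes Pmaip1 a target of p53 and of Atf4, and the part of either in its difference between the sites was not tested. Among genes that had not passed the filter through the higher site alone, limma gave an unadjusted p under 0.05 for 1 of 7 genes of the p53 list (median log2 fold change -0.038), 3 of 8 of the integrated stress response list (median 0.28), 0 or 1 in each of the other 5 of these lists and 4 of 8 of the immediate-early and heat shock list, against 4.37% of all such genes.

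Among the pro-survival members, Mcl1 (chromosome 3, 95658788 to 95663176) was the most abundant in all 38 libraries and the highest of all 10 members in 35 of them. It ran from 29.9 to 489 RPKM in niche cells (median 96.2, 28 libraries) and from 122 to 280 RPKM in myeloma cells (median 185, 10 libraries), on at least 1744 reads. Group means were 211 RPKM ± 68.6 (SD, n = 5) in bone lining myeloma cells and 175 RPKM ± 31.6 (SD, n = 5) in central marrow myeloma cells. Healthy endothelial cells came between them with a mean of 188 RPKM ± 172 (SD, n = 5), with library L at 489 RPKM and the other 4 between 63.6 and 153 RPKM. The other niche groups had means from 89.4 to 117 RPKM, and no neighbours in the order of group means were apart.

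Bcl2l1 (chromosome 2, 152780668 to 152831728) was 8.04 to 30.2 RPKM in myeloma cells, with group means of 18.0 and 19.2 RPKM. In niche cells it ran from 0 to 26.2 RPKM with a median of 5.44, and 4 of 28 libraries had 3 reads or fewer. Bcl2 (chromosome 1, 106538178 to 106714274) went the other way. It was 0 to 2.21 RPKM in myeloma cells (median 0.616) and up to 33.0 RPKM in niche cells (median 2.84). Its highest mean was in endothelial cells of myeloma-bearing mice, 11.1 RPKM ± 12.5 (SD, n = 5), where replicates D, E, G, I and J were 9.64, 33.0, 5.78, 3.37 and 3.86 RPKM, and its lowest in central marrow myeloma cells, 0.517 RPKM ± 0.287 (SD, n = 5).

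As shares of the summed RPKM of the 3 pro-survival members, Mcl1 took 90.8% ± 3.57, Bcl2l1 8.81% ± 3.73 and Bcl2 0.390% ± 0.312 in myeloma cells (SD, n = 10). In niche cells the shares were 87.4% ± 10.9, 6.93% ± 6.16 and 5.68% ± 6.78 (SD, n = 28), and the Mcl1 share ran from 53.4% in myeloma-bearing endothelial library E to nearly all in healthy endothelial library L. Bcl2 was at most 1.08% in every myeloma library and reached 30.5% in a niche library. The ratio of Bcl2 to Bax was 0 to 0.0408 in the 10 myeloma libraries (median 0.0147), and 0.000368 to 2.41 (median 0.119) in the 26 niche libraries with more than 3 Bax reads. Shares of RNA are not shares of protein.

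**Figure D3:**
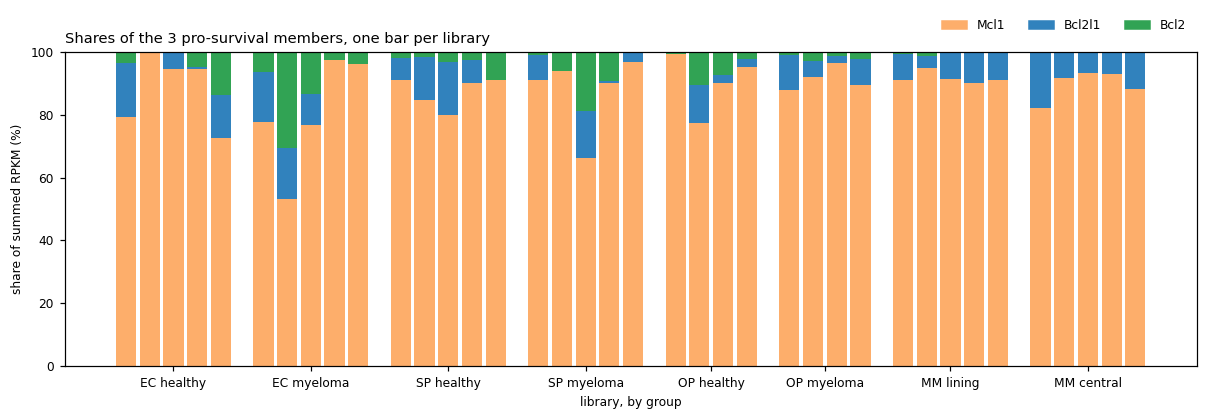
Stacked bars give, for each of the 38 libraries, the percentage of the summed RPKM of Mcl1, Bcl2l1 and Bcl2 that each takes, from 0 to 100, with libraries in order of group and letter; EC, SP, OP and MM are endothelial cells, stromal progenitors, osteoprogenitors and myeloma cells. Mcl1 is the largest part of every bar, and the Bcl2 part is at most 1.08% in the 10 myeloma bars.

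Of the effectors, Bax (chromosome 7, 45461697 to 45466898) was the abundant one and Bak1 was low throughout. Bax was 38.7 to 83.9 RPKM in myeloma cells, with means of 59.1 RPKM ± 15.5 in the bone lining and 53.7 RPKM ± 14.3 in the central marrow (SD, n = 5 each). In niche cells it ran from 0 to 113 RPKM. The highest value was in myeloma-bearing stromal library I, and in myeloma-bearing endothelial cells library D was at 0 RPKM and library G at 87.6 RPKM. Bak1 was 1.05 to 3.33 RPKM in myeloma cells and 0 to 4.47 RPKM in niche cells, with 3 reads or fewer in 12 of 28 niche libraries. Myeloma-bearing endothelial libraries J, I, E and G were at 4.47, 2.64, 1.83 and 0.920 RPKM and D at 0 RPKM, while healthy endothelial cells had 0 reads in 4 of 5 libraries.

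Bid (chromosome 6, 120891930 to 120916853), which caspase-8 cleaves to pass death receptor signals on to mitochondria, was present in all myeloma libraries and scattered in niche cells. It was 11.7 to 38.3 RPKM in myeloma cells on at least 296 reads. Of 28 niche libraries, 18 had 3 reads or fewer, while the others reached 32.6 RPKM. In healthy osteoprogenitors all 4 libraries had at most 1 read, and in healthy endothelial cells C, M and O had 29.7, 21.7 and 14.1 RPKM while L and N had 0 reads. In myeloma-bearing stromal progenitors only E, the library with neutrophil markers, had more than 2 Bid reads, with 24.5 RPKM. In the GENCODE annotation 628 of the 3550 exonic bases of Bid lie under exons of Bcl2l13 on the other strand, and where a library does not keep strand the reads of the pair cannot be told apart there.

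Bad (chromosome 19, 6941861 to 6951899), which growth factor kinases keep inactive, was the BH3-only member with the highest RPKM in niche cells. Its means were 60.2 RPKM ± 26.0 and 50.3 RPKM ± 59.1 in myeloma-bearing and healthy endothelial cells (SD, n = 5 each), 42.5 RPKM ± 35.1 in myeloma-bearing and 20.2 RPKM ± 24.2 in healthy stromal progenitors (SD, n = 5 each), and 15.6 RPKM ± 8.54 and 9.09 RPKM ± 5.52 in myeloma-bearing and healthy osteoprogenitors (SD, n = 4 each). Myeloma cells had 3.04 to 28.3 RPKM. Bad shares 524 of 2558 exonic bases with Gpr137 on the other strand, and Bak1 614 of 2407 with Ggnbp1.

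Bcl2l11 and Bbc3 encode BH3-only proteins. Bcl2l11 was 0.412 to 5.54 RPKM in myeloma cells and 0 to 15.4 RPKM in niche cells, with its highest mean in healthy endothelial cells (6.07 RPKM ± 4.13, SD, n = 5). Bbc3 was at most 3.71 RPKM in myeloma cells and at most 4.00 RPKM in niche cells, where 14 of 28 libraries had 3 reads or fewer. For both genes, ranges of neighbouring groups overlapped throughout the order of means.

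For each of the 10 members the relative spread was larger over niche libraries than over myeloma libraries, as a description. The coefficient of variation over libraries was 0.709 to 1.92 for the 10 members in niche cells, and 0.254 to 1.21 in myeloma cells. The 28 niche libraries span 6 groups and the 10 myeloma libraries 2. A niche library had a median of 3 members (range 0 to 9) with 3 reads or fewer and a myeloma library a median of 0 (range 0 to 1). Over all genes of the table, 20.7% to 52.6% had 3 reads or fewer in a niche library and 21.9% to 30.5% in a myeloma library. In 100 sorted cells, fewer cells that express a gene and less RNA per cell cannot be told apart.

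Myeloma cells were compared with the niche cells of myeloma-bearing mice to ask how the tumour's apoptosis genes stand against its surroundings. Bid, Bcl2l1 and Bax were higher in myeloma cells. Over the 10 libraries of myeloma cells and 14 of niche cells, with groups weighted equally, limma gave a log2 fold change of 3.13 for Bid (SE 0.66, adjusted p = 3.45e-04), 1.73 for Bcl2l1 (SE 0.52, adjusted p = 0.00738) and 1.17 for Bax (SE 0.52, adjusted p = 0.0631). Mcl1 (0.98, SE 0.29, adjusted p = 0.00770) and Bak1 (0.73, SE 0.29, adjusted p = 0.0364) passed on p and stayed under the fold threshold. Bad (-0.84, SE 0.48, adjusted p = 0.147), Bbc3 (0.21, SE 0.29, adjusted p = 0.559) and Bcl2l11 (0.18, SE 0.47, adjusted p = 0.776) were not called.

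For Pmaip1 and Bcl2 the difference is a description with no test, since each passed the filter only through the side where it was higher. Pmaip1, on whose bone lining values the family was picked, was above 1 RPKM in 3 of 14 niche libraries and all 10 myeloma libraries. Bcl2 was above 1 RPKM in 3 of 10 myeloma libraries and 13 of 14 niche libraries, and its log2 fold change was -1.57 (SE 0.43). For Pmaip1 it was 4.94 (SE 0.32), or 4.21 (SE 0.41) with myeloma cells of the central marrow alone and 5.66 (SE 0.46) with those of the bone lining alone, both against the same niche libraries. Pmaip1 was the only member whose myeloma and niche libraries did not overlap, which held for 6.51% of all genes.

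Of the other 8 members 3 were called, all higher. Of all 11836 genes tested 50.0% were called, 26.9% as higher and 23.1% as lower. Without the 3939 genes that passed the filter only through their higher side these shares were 38.9%, 29.0% and 9.88%, so the number called does not set the family apart. Bid and Bcl2l1 were also called with either site alone. Bax was not, with limma adjusted p = 0.243 for the central marrow and 0.193 for the bone lining, and without letter D its log2 fold change was 0.55 (limma adjusted p = 0.286). Over all 14 alternatives the log2 fold change of Bax stayed above 0, from 0.55 to 1.49. With libraries centred on their medians, which moved the median of all genes from 0.22 to -0.013, Bax was 0.94 (limma adjusted p = 0.124) and Bad was called at -1.07 (limma adjusted p = 0.0685). Over all genes, 3189 were called higher and 2732 lower, or 2577 and 3202 with centred libraries. Without myeloma-bearing stromal library E, Mcl1 was called at 1.01 (limma adjusted p = 0.00793), Bid was 3.44 (SE 0.59, limma adjusted p = 3.13e-05) and Pmaip1 4.89 (SE 0.32).

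**Figure D4:**
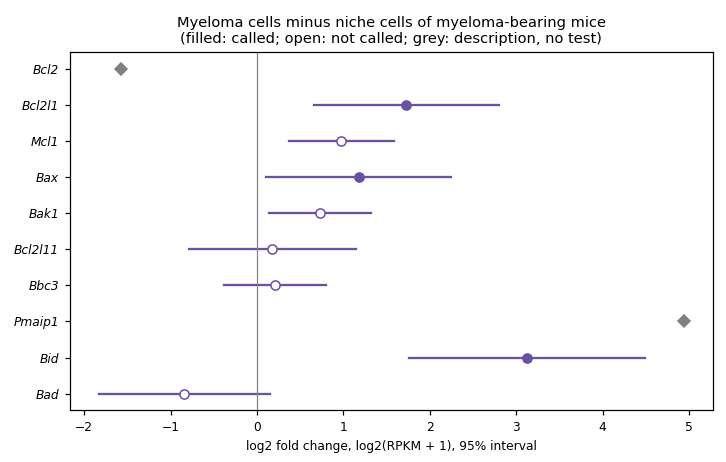
Points are log2 fold changes in log2(RPKM + 1), myeloma cells minus niche cells of myeloma-bearing mice, with the 95% interval of the limma fit as a line; filled points passed both thresholds, open points did not, and grey diamonds are Pmaip1 and Bcl2, descriptions with no test. Pmaip1 at 4.94 and Bid at 3.13 lie farthest to the right, and Bcl2 at -1.57 farthest to the left.

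Around the family, 7 lists of apoptosis and stress genes and 1 of immediate-early and heat shock genes were counted in the same comparison. Of 73 genes tested 44 were called, and 14 of these had passed the filter only through the side where they were higher. All genes that passed in that way are left out of the list counts that follow, which stand against the 38.9%, and those named are given as a description. Of 5 other Bcl2 family genes 1 was higher and 2 were lower. The lower genes were Bnip3, a mitophagy receptor (-2.73, SE 0.48), and its relative Bnip3l (-1.49, SE 0.38), which is named after its value was seen, and the higher gene was Bcl2l13, which shares exonic bases with Bid (1.63, SE 0.41, limma adjusted p = 0.00186). Bok, an effector-like member with at most 1 read in every myeloma library, was at -3.39 (SE 0.52) as a description. Of 12 genes of the apoptosome and caspases 6 were higher, led by Aifm1 (2.28, SE 0.61), Diablo (2.07, SE 0.77), which neutralises inhibitor of apoptosis proteins, and Dffb (1.81, SE 0.49), the nuclease that cuts DNA in apoptosis. The mitotic gene Birc5, the only inhibitor of apoptosis gene past the thresholds, was at 5.05 (SE 0.41) as a description.

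In the death receptor list 3 of 8 genes were lower in myeloma cells and 1 higher. The receptors Tnfrsf1a (-3.73, SE 0.39) and Fas (-2.87, SE 0.73) were lower, Fas without a call by voom-limma, and the higher gene was Casp8 (1.39, SE 0.46, limma adjusted p = 0.0150), whose protein cleaves Bid and which is named after its value was seen. The receptor Tnfrsf10b was at -1.77 (SE 0.31) as a description. Of 10 p53 genes 1 was higher, Trp53inp1 (3.72, SE 0.49), and 2 were lower, Fas again and Cdkn1a (-1.52, SE 0.29), while Gadd45a (-4.03, SE 0.58) and Phlda3 (-2.97, SE 0.56) are a description. Of 6 genes of the integrated stress response 1 was higher, Asns (4.04, SE 0.70), an amino acid synthesis gene, and 2 were lower, Ppp1r15a (-2.62, SE 0.35) and Ddit3 (-1.81, SE 0.29), while Atf3 was at -6.99 (SE 0.36) as a description. In the Mcl1 turnover list 2 of 4 genes were higher, Fbxw7 (1.98, SE 0.46), part of a ubiquitin ligase for Mcl1, and Usp9x (1.31, SE 0.42), which removes ubiquitin from Mcl1. Immediate-early and heat shock genes were lower in 9 of 11 and higher in 0. The largest differences of that list, Egr1 (-8.66, SE 0.28), Ier3 (-8.51, SE 0.28) and Atf3, are a description. Cdkn1a and Ddit3 are named after their values were seen.

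The effect of myeloma on the niche was asked by comparing each niche cell type between myeloma-bearing and healthy mice. No member was called in any of the 3 cell types. Members that passed the filter only through their higher side are given as a description here too. In endothelial cells the log2 fold changes of the 6 members tested ran from -1.12 (Bid) to 1.31 (Bad), with limma adjusted p of at least 0.956, and 0.0% of 7880 genes were called. Bcl2 was at 1.27 (SE 1.19) and Bcl2l11 at -1.13 (SE 1.09) as a description. Without healthy library L Bid was -1.78 (SE 1.36), Bad 0.19 (SE 0.70), Bcl2l11 -1.74 (SE 1.10), Mcl1 -0.43 (SE 0.59) and Bcl2 0.81 (SE 1.21). In stromal progenitors 6 were tested, from -0.83 (Bcl2l1) to 1.39 (Bad), with limma adjusted p of at least 0.976 and 0.0% of 8747 genes called. Bad was 0.58 (SE 0.99) without healthy library L, 0.95 (SE 1.18) without myeloma-bearing library E and 0.15 (SE 1.05) without both, when the members ran from -0.92 (Bcl2l11) to 0.28 (Bax). In osteoprogenitors 4 were tested, from -0.81 (Bcl2) to 0.83 (Bad), with limma adjusted p of at least 0.998 and 0.0115% of 8664 genes called, and Bcl2l1 was at 1.12 (SE 0.97) and Bax at 0.16 (SE 1.09) as a description. At an unadjusted p under 0.05 the members passed 0 times, and all genes 414, 437 and 422 times. Voom-limma on the recovered reads also called 0 members in each cell type, and leaving out healthy endothelial library L or the stromal libraries with neutrophil markers did the same. Of the 8 pathway lists 66, 63 and 60 genes were tested, 0 were called by either fit, and 4, 3 and 3 had an unadjusted p under 0.05.

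Centring libraries moved the median of all genes in endothelial cells from 0.071 to -0.28, with Mcl1 at -1.22 and Bcl2 at 0.91 there. The spread of the niche libraries left wide intervals. For Mcl1, the member with the smallest errors, the 95% interval of the log2 fold change was -2.26 to 0.53 in endothelial cells, -0.90 to 1.22 in stromal progenitors and -0.98 to 1.00 in osteoprogenitors. Bcl2 was at 2.86, 0.00736, 0.0166, 4.99 and 26.0 RPKM in healthy endothelial libraries C, L, M, N and O. Pmaip1 and Bak1 fell under the filter in all 3 cell types, and Bbc3 and Bid in both mesenchymal types. The response of 1 cell type minus that of another was also fitted, over all 28 niche libraries only. No member was called in these 3 differences of 11713 genes each, where limma adjusted p was at least 0.912 for every member, and 0.0%, 0.0% and 0.00854% of all genes were called, the last being 1 gene, lower, for stromal progenitors minus osteoprogenitors. Bak1 was at 1.36 (SE 0.64) for endothelial cells minus osteoprogenitors, as a description. Only 4 of the 28 niche libraries had it above 1 RPKM, 3 of them myeloma-bearing endothelial libraries. None of the other members had an unadjusted p under 0.05 by limma, and voom-limma called 0 members.

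**Figure D5:**
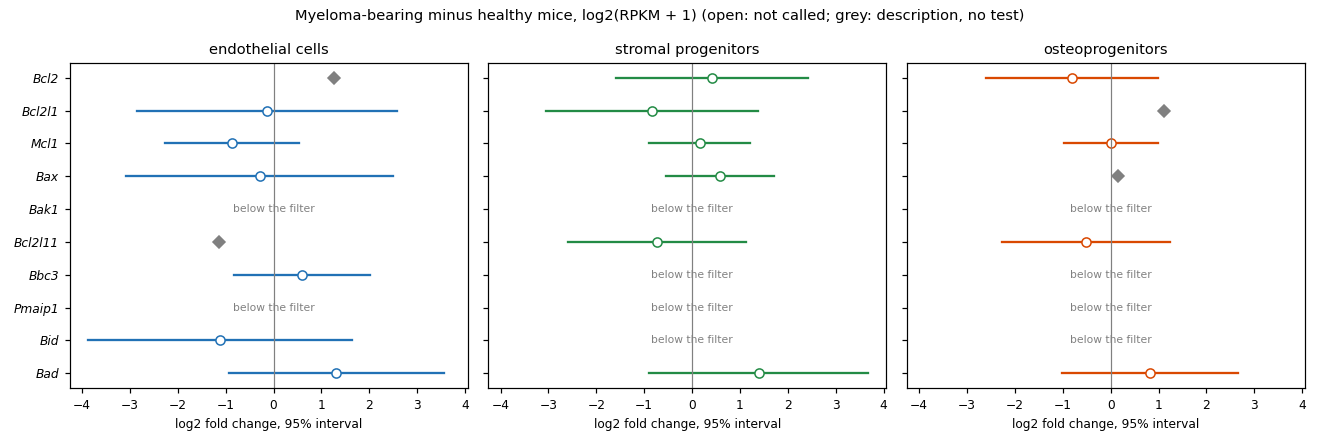
Points are log2 fold changes in log2(RPKM + 1), myeloma-bearing minus healthy mice, for each member in endothelial cells, stromal progenitors and osteoprogenitors, with the 95% interval of the limma fit as a line; members under the filter on low values are named as such. Grey diamonds are members that passed the filter through their higher side alone and have no test, all other points are open, since no member passed, and every interval crosses 0.

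Healthy endothelial cells were set against the healthy mesenchymal cells, the mean of stromal progenitors and osteoprogenitors, to see whether the lineages of the niche differ in these genes. Of 7 members tested 0 were called, against 12.6% (8.46% higher and 4.18% lower) of the 5498 genes that had not passed the filter through their higher side alone and 21.6% of all 9952 genes (7.95% higher and 13.7% lower; 791 higher and 1362 lower, or 1505 higher and 538 lower with libraries centred). Bcl2 was at -0.32 (SE 0.81) as a description. Bad was at 1.30 (SE 1.09, limma adjusted p = 0.470). Bid is counted among the 7, but its values are a description, at 2.24 (SE 0.93). It just met the filter, with 3 endothelial libraries, 1 stromal library and 0 osteoprogenitor libraries above 1 RPKM. Without healthy endothelial library L both were called, Bid at 2.91 (SE 0.94, limma adjusted p = 0.0476) and Bad at 2.43 (SE 0.93, limma adjusted p = 0.0949), and with healthy stromal library L left out as well both were called, at 2.80 and 2.02. Without healthy stromal library L alone neither was called, at 2.13 and 0.90. With centred libraries, which moved the median of all genes from -0.31 to 0.63, Bid was at 3.18. None of the other members had an unadjusted p under 0.05 by limma, and voom-limma called 0 members.

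In the lists of this comparison 10 of 72 genes tested were called, and 4 of these had passed the filter only through the side where they were higher and are a description. They were Tnfsf10, the death ligand TRAIL (5.17, SE 0.60), Bik, a BH3-only gene (2.57, SE 0.70), Bcl2l13 (2.51, SE 0.90) and Bnip3 (-4.61, SE 0.85). Casp8 was higher in endothelial cells (2.77, SE 0.99, limma adjusted p = 0.0665), as was Casp9 (1.86, SE 0.74, limma adjusted p = 0.0986), which voom-limma did not call. Cdkn1a (-1.98, SE 0.58), Herpud1 (-2.89, SE 0.53), Atf3 (-1.55, SE 0.46) and Fosb (-1.17, SE 0.44) were lower, and 0 genes were called, by limma, at an unadjusted p under 0.05 or by voom-limma, in the lists of inhibitor of apoptosis proteins and Mcl1 turnover. Between healthy osteoprogenitors and healthy stromal progenitors 4 members were tested and 0 called, against 2.28% (0.616% higher and 1.66% lower) of the 6491 genes that had not passed the filter through their higher side alone and 3.58% of all 8707 genes (1.69% higher and 1.9% lower). Their log2 fold changes ran from -0.28 (Bad) to 0.33 (Bcl2), with limma adjusted p of at least 0.860, and Bcl2l1 was at -1.02 (SE 1.06) and Bax at -0.97 (SE 0.91) as a description. Without healthy stromal library L Bad was -1.08, Bax -1.19, Bcl2l1 -0.61 and Mcl1 0.43. At an unadjusted p under 0.05 and by voom-limma 0 members passed. Of 62 list genes 2 were called. Dnajb1 was higher in osteoprogenitors (1.95, SE 0.51, limma adjusted p = 0.0559), and Phlda3 was at -3.12 (SE 0.84) as a description, since it passed the filter only through the stromal progenitors, and voom-limma did not call it.

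Genes with the pattern most like each member were sought by Pearson's r of log2(RPKM + 1) over the 38 libraries and 12682 genes, as a description. The libraries share cell types, so a gene that is high only in myeloma cells will score high against another of that kind. Pmaip1 was most like Dyrk3 (r = 0.94), Trdn (r = 0.93) and Ankrd22 (r = 0.93), whose means were 35.5, 9.08 and 37.1 RPKM in myeloma cells and at most 0.211 RPKM in niche cells. Bcl2 was most like Fblim1 (r = 0.74), Acap2 (r = 0.72) and Pcdhb17 (r = 0.71), all with lower means in myeloma cells. For Mcl1 they were Rps18 (r = 0.75), Gm8580 (r = 0.74) and Rplp1 (r = 0.72), and for Bcl2l1 Samm50 (r = 0.70), Naa50 (r = 0.65) and Kti12 (r = 0.64). The first gene was Psme3 for Bak1 (r = 0.84), Clpp for Bax (r = 0.78), Gcc2 for Bid (r = 0.75), Slc50a1 for Bad (r = 0.72), Cd46 for Bbc3 (r = 0.69) and Siah1a for Bcl2l11 (r = 0.66). Among the members themselves, the highest r was 0.62, between Pmaip1 and Bid, and the lowest -0.46, between Bcl2 and Mcl1.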

How the data were processed

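RNA of 38 libraries of 100 sorted cells was amplified by SmartSeq2 and sequenced. Reads were aligned by the authors with STAR 2.4.0 to the mouse genome GRCm38 (mm10) and counted with featureCounts of Subread 1.4.5-p1, and genes were filtered on CPM. The authors deposited RPKM values calculated with edgeR, which are used here. Whole reads behind them were recovered for all 13260 genes (tolerance 0.02 reads, tested on simulated data). Read limits cover counting error only, and intervals of the fits cover the spread between libraries.

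Groups were compared with limma 3.58.1 in R 4.3.3 (lmFit, eBayes with trend) on log2(RPKM + 1), two-sided, for genes with more than 1 RPKM in 4 or more libraries of a comparison. Adjusted p-values (Benjamini-Hochberg, over all genes tested) below 0.1 with an absolute log2 fold change above 1 were called. In comparisons of 2 sides, genes that passed the filter only through the higher side are described with no test. The result of 1 list gene is not reported here. Alternatives are a pseudocount of 0.1, no filter, all 38 libraries in the fit, centring, voom-limma on recovered reads, a block for letters and leaving out letters. Fits without single libraries or a pair of them and with a single myeloma site were added after the data were seen. Named genes are the 10 members and, in each list, the called genes, with the 3 largest changes where more than 3 were called. The members and lists were chosen with earlier results of these data known. Gene lists hold symbols not analysed here, among them Bcl2a1 genes, Hrk, Fasl and the lymphocyte markers. Positions are from GENCODE M21 and upstream sequences from RefSeq, both on GRCm38. Python 3.11.15 was used for tables.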

Additional observations from a re-analysis of the deposited data

Results flagged for a closer look

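In 80 sets of values (10 members in 8 groups of 4 or 5 libraries), a library stood far from the others of its group by Dixon's criterion in 20, all of them the highest of their group and 19 of them in niche cells. Chance flags about 1 in 20 sets of normally distributed values, and many of these sets hold libraries at 0. For Bcl2 these were healthy endothelial O (26.0 RPKM), myeloma-bearing endothelial E (33.0 RPKM) and healthy stromal O (8.37 RPKM). For Mcl1 they were healthy endothelial L (489 RPKM) and myeloma-bearing osteoprogenitor I (191 RPKM). For Bak1 they were healthy endothelial C (0.577 RPKM), healthy stromal M (0.0696 RPKM, 3 reads) and myeloma-bearing osteoprogenitor G (1.90 RPKM). For Bcl2l11 they were myeloma-bearing endothelial J (15.4 RPKM), myeloma-bearing stromal D (7.49 RPKM) and central marrow myeloma J (2.90 RPKM). For Bbc3 they were healthy endothelial N (4.00 RPKM) and myeloma-bearing osteoprogenitor I (2.16 RPKM). For Pmaip1 they were healthy endothelial O (5.28 RPKM), myeloma-bearing stromal J (4.38 RPKM) and healthy osteoprogenitor N (2.70 RPKM). For Bid they were healthy stromal N (17.2 RPKM), myeloma-bearing stromal E (24.5 RPKM) and healthy osteoprogenitor N (0.0327 RPKM, 1 read). For Bad it was healthy endothelial M (153 RPKM). Bax and Bcl2l1 had none.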

How the results depend on the processing

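In the comparison of myeloma with niche cells, Bid and Bcl2l1 kept their direction and their call in all 14 alternatives. Over all genes 4542 to 7272 were called in these alternatives, of 11208 to 13260 tested. Pmaip1 and Bcl2, here too a description, kept their direction. Bax kept its call in 6 of the 14. Bcl2l11 turned to -0.052 and Bbc3 to -0.018 with centred libraries, and Bcl2l11 to -0.010 with the central marrow alone, all without a call. The Mcl1 difference between myeloma-bearing and healthy mice, not called, ran from -0.27 to 0.30 without single letters in osteoprogenitors, below 0 without I, M or N, and from -0.056 to 0.58 in stromal progenitors, below 0 without D or I. No alternative called a member in these niche comparisons. In healthy endothelial against mesenchymal cells the counts of members past both thresholds are a description, since they hold Bid or rest on leaving out library L. With all 38 libraries 1 member passed, beside 3042 of 9952 genes, and with centring 1 member, beside 2043 of 9952. Without healthy endothelial library L 2 members passed, beside 1899 of 9842 genes. With healthy stromal library L left out as well 2 passed, beside 1930 of 9679 genes. Without single letters 0 to 2 members passed, beside 1527 to 1914 genes.

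Over all genes, the counts called moved more. With all 38 libraries in the fit they were 258 in endothelial cells, 31 in stromal progenitors and 16 in osteoprogenitors, against 0, 0 and 1. Between the myeloma sites that fit called 26, 12 higher and 14 lower, against 13 higher and 5 lower. With voom they were 4 in endothelial cells, 0 in osteoprogenitors and 8 between the myeloma sites, against 18 there, and 5 and 3 for the response of endothelial cells minus that of stromal progenitors and of osteoprogenitors; the latter was 1 with a pseudocount of 0.1. With no filter they were 2 in endothelial cells, 0 in osteoprogenitors and 1 between the sites. Without single letters they were 0 to 1 in stromal progenitors, 0 to 1 in osteoprogenitors, 113 to 343 between healthy osteoprogenitors and stromal progenitors (312 with all letters) and 3 to 16 between the sites. In stromal progenitors 1 gene was called without healthy library L, and 1 without that and myeloma-bearing library E.

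Deviations of same-letter libraries correlated at -0.049 to 0.067 between the myeloma sites and at most at 0.145 between other groups. In each of 5 pairs of groups, 1 to 3 libraries correlated best with their own letter. Such correlations cannot tell whether libraries of a letter share a mouse. With a replicate block 12 genes were called between the sites, 5934 between myeloma and niche cells, 2219 between endothelial and mesenchymal cells and 268 between osteoprogenitors and stromal progenitors, and no call of a member changed outside the site comparison. Bak1, Bbc3, Pmaip1 and Bid had 3 reads or fewer in 12 to 18 of 28 niche libraries. The causes of these changes were not tested.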
